A study of Mus musculus with 14 samples.

Results

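The genes described here are 42 effectors of the type I interferon response, taken as a list of symbols from the deposited expression table of 35735 genes. The list was chosen with earlier results of these data known. Counts of members set beside shares of all genes are therefore description and no test of the list. The 2'-5'-oligoadenylate synthetases, interferon-regulatory factors and STAT factors were left out of the list and are given only as context. All 42 symbols were found in the table, and 36 had enough reads to be tested. They were measured in RNA from microglia, the resident macrophages of neural tissue, sorted from mouse retina. The 14 libraries were each made from the cells of 1 retina of a mouse aged 12 weeks. Mice were homozygous for APOE E3 (here APOE3) or APOE E4 (here APOE4), forms of the apolipoprotein E gene. Eyes were injected either with microbeads or as a sham control. Microbeads obstruct fluid outflow from the eye and are used as a model of glaucoma. Each genotype gave 4 sham and 3 microbead libraries, named here by genotype and treatment (APOE3 sham and so on). Cells were collected as Fcrls+, CD11b+ and Ly6c-, and the labels give 100 to 600 cells collected from each retina. The labels do not say whether the retinas came from separate animals, so p-values measure the spread between these samples, which may in part be technical.

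Type I interferons bind the receptor IFNAR on the cell surface, which activates the kinases JAK1 and TYK2. These phosphorylate STAT proteins, which join IRF9 in a complex that binds the interferon-stimulated response element (ISRE) in the promoters of target genes. The targets include the effectors described here: proteins that sense viral nucleic acid, block viral RNA translation, trap virus particles or damp the signal. In microglia, genes of this kind are known to be induced together in viral infection, ageing and neurodegeneration.

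The promoter windows of 7 members are shown because they hold the element through which the members are known to be induced, and 6 of them belong to genes called higher below. A window runs from 250 bases before to 50 bases after a RefSeq transcription start in GRCm38.p6. The 250 bases before the start are printed 5' to 3' along the gene, and for Ifitm3, whose matches lie after the start, only the stretch that holds them. Capitals mark matches to the ISRE core, GAAA, any 2 bases and GAAA again, on either strand (TTTC, any 2 bases and TTTC on the opposite one).
Ifi207 (chr1:173741810-173742059, minus strand): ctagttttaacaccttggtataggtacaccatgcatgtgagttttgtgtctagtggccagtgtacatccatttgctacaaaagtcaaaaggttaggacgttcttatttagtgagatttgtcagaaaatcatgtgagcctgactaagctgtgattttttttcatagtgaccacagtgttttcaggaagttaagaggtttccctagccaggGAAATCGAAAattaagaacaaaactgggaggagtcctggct
Ifi213 (chr1:173599273-173599522, minus strand): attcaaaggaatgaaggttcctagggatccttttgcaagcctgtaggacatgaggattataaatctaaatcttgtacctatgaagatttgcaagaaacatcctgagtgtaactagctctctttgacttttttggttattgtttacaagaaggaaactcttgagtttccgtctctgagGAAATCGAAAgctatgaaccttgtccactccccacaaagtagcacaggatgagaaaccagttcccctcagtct
Ifit3 (chr19:34583279-34583528, plus strand): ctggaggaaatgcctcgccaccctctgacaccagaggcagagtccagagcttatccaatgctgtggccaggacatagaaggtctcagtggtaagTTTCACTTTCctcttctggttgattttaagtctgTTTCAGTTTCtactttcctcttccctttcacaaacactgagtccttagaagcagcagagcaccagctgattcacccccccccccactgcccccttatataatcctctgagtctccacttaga
Ifit3b (chr19:34607707-34607956, plus strand): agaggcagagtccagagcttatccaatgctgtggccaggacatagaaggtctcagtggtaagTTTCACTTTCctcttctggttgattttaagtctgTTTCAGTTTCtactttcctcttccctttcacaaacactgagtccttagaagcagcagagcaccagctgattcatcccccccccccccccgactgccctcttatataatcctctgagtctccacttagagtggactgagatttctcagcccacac
Ifitm3 (chr7:141010716-141010742, minus strand): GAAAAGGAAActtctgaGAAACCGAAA
Rsad2 (chr12:26456453-26456702, minus strand): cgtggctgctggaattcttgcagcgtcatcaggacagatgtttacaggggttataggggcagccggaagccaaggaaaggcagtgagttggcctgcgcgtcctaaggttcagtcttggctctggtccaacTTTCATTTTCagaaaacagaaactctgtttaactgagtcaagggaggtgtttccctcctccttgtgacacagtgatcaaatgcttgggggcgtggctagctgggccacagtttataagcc
Isg15 (chr4:156200819-156201068, minus strand): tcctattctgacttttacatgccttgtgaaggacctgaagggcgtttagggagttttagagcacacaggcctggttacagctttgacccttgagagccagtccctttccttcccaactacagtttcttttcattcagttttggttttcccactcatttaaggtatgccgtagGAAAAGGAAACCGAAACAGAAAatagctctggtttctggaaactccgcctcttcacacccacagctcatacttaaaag

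Of the 42 members, 32 had a window, and 20 of these 32 held the ISRE core in at least 1 of their windows. Among all 27025 genes with a window, 3.99% held it. The STAT palindrome TTCNNNGAA, which is its own reverse complement and was counted once, lay in the windows of 7 of the 32 members and of 9.55% of all genes. The windows of Ifit3 and Ifit3b, both on chromosome 19, were 75.9% identical end to end, with gaps counted as differences. They held the same pair of sites, TTTCACTTTC and TTTCAGTTTC. The first site lay 156 bases before the start in Ifit3 and 188 in Ifit3b. The windows are thus offset, and the percentage understates the likeness of their shared stretch. Ifi207 and Ifi213 carried the same 10 bases, GAAATCGAAA, in windows that were 50.1% identical by the same measure. The windows of Ifit1 and Ifit3 gave 50.45%, and Ifit1 held the same pair of sites as Ifit3. No windows of unrelated genes were aligned, so whether such values mark any likeness was not tested. Isg15 had 3 matches, the most among the windows shown. Of the 26 tested members with a window, 9 of the 17 with a match and 6 of the 9 without one were called higher for the mean effect below. The 6 without a match were Ifi209, Ifit2, Rnf213, Samhd1, Slfn2 and Sp100. A match is a description of the letters and not evidence of binding. The members lay on 12 chromosomes, with 6 Ifi200 genes within 376 kb of chromosome 1 and 4 Ifit genes within 99.3 kb of chromosome 19.

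Libraries held 453429 to 730134 estimated reads, of which 38.5% to 65.3% fell on 12 satellite-like predicted genes. The members together took 390 to 2248 reads per library, so single values often rest on fewer than 50 reads. Levels below are CPM, reads scaled by TMM to a common library size, given for each library in the order of its replicate number, which carries no meaning. The microglial genes P2ry12, Tmem119, Fcrls and Itgam had reads in all 14 libraries. Ly6c2, a marker of the cells that the sort gate removed, stood at no more than 6.37 CPM in any library. Another monocyte marker, Ccr2, stood at 80.5, 111 and 15.4 CPM in the APOE3 microbead libraries and at no more than 18.2 CPM in the others. In bulk libraries, fewer cells of a type and less RNA per cell cannot be told apart. The alleles of Apoe itself cannot be checked here, because the transcript set holds the mouse gene.

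With the edgeR quasi-likelihood test, 11 of the 36 effector genes tested were higher after microbeads than after sham in APOE3, 22 for the mean effect of both genotypes and none in APOE4. No member was called lower in any comparison (1.67% of all genes were in APOE3 and 1.35% for the mean effect). In APOE3 the 11 members passed at an adjusted p under 0.05 (edgeR, Benjamini-Hochberg over 7609 genes), against 3.52% of all genes tested. They were Ifi204, Ifi207, Ifi213, Ifi27l2a, Ifit2, Ifitm3, Rnf213, Rsad2, Sp100, Trim30a and Zbp1. At an unadjusted p under 0.05, 25 of 36 members were higher, against 8.41% of all genes, and 34 of 36 (all but Ddx58 and Xaf1) had a fold change above 0, against 48.5%. The 3 microbead libraries lay wholly above the 4 sham libraries for 17 of 36 members, against 7.60% of all genes. The median log2 fold change of the members was 1.22, and that of all genes was -0.02. Without APOE3 microbead 1 and 2, the members' median was 0.56. That fit left only APOE3 microbead 3 in its group, the library that was the lowest of the group for 25 of 36 members. The number called ranged from 4 to 17 when 1 library was left out. It was 4 without APOE3 sham 2 or APOE3 microbead 2, 6 without APOE3 microbead 1, 7 without APOE3 sham 1, and 17 without APOE3 microbead 3.

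In APOE4 the members' median log2 fold change was 1.17, and all 36 had a fold change above 0 (at least 1 fell below in some alternatives, at most 2 in any), against 49.5% of all genes. None of the 36 passed the adjusted threshold with edgeR, and 0.197% of all genes (15 of 7609) were called higher. At an unadjusted p under 0.05, 24 of 36 members were higher, against 3.61% of all genes. Adjusted p-values in APOE4 began at 0.0748, for Ifi213. The microbead libraries lay wholly above the sham libraries for 12 of 36 members, against 5.01% of all genes. DESeq2 called 4 members higher in APOE4: Ifit2, Ifi213, Rnf213 and Ifitm3. Tested without the low-count filter, edgeR called 11 of 42 members, and limma-voom called 0. The shares of all genes called in these other fits are not given, so these counts cannot be read against a background. Leaving out 1 library gave 0 to 2 calls: Bst2 and Ifi213 without APOE4 microbead 1, Rnf213 without APOE4 sham 1, and Ifit2 without APOE3 microbead 1 or without APOE3 microbead 3.

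The responses of the genotypes were compared directly by the interaction, the APOE4 effect minus the APOE3 effect. No member passed it (edgeR, 0 of 36, against 0.0920% of all genes), with DESeq2 and limma-voom also at 0, and 1 member had an unadjusted p under 0.05. That was Ifi207, at -1.83 ± 0.74 log2 (unadjusted p = 0.0212, under which 4.67% of all genes were lower, adjusted p = 0.482, 95% interval -3.35 to -0.30). The median difference was -0.11, with 23 members larger in APOE3 and 13 larger in APOE4 (50.7% of all genes were larger in APOE4). It ran from -0.43 without APOE4 microbead 3 to 0.06 without APOE4 microbead 1 when 1 library was left out, and so has no settled sign. Intervals of the difference included 0 for 35 of 36 members but were wide, with a median width of 2.95 log2 units. With intervals of this width the members are not shown to respond alike. Without APOE3 microbead 1 and 2 the median difference was 0.43, of the opposite sign. That value rests on APOE3 microbead 3 alone in its group. These effects share no libraries, since each genotype had its own sham group.

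Between the genotypes at rest, APOE4 sham against APOE3 sham, 0 of 36 members passed (edgeR, 0.0131% of all genes, DESeq2 and limma-voom also 0), and 0 had an unadjusted p under 0.05, against 2.46% of all genes higher and 1.95% lower. The median log2 difference was 0.34, higher in APOE4, with 30 of 36 estimates above 0 against 50.0% of all genes, and no member's sham groups were apart, against 2.17% of all genes higher and 1.38% lower in APOE4. Between the microbead groups, APOE4 against APOE3, 0 of 36 passed (0.578% of all genes; DESeq2 and limma-voom also 0), with a median difference of 0.15 and 25 of 36 estimates above 0, against 50.0% of all genes. That median was -0.19 without APOE4 microbead 3, -0.03 without APOE3 microbead 3 and 0.41 without APOE4 microbead 1. The microbead groups did not overlap for 1 member, against 7.32% of all genes higher in APOE4. It was Slfn8, a Schlafen gene, at 1.00 ± 0.36 log2 (unadjusted p = 0.0107, under which 4.64% of all genes were higher, adjusted p = 0.283).

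The mean of both microbead effects uses all libraries and so has the smallest error, a median SE of 0.35 against 0.50 in APOE3 and 0.48 in APOE4. It does not test whether both genotypes have the effect. For it, 22 of 36 members were higher, against 3.26% of all genes tested, and the members' median was 1.12. At an unadjusted p under 0.05, 31 of 36 were higher, against 8.08% of all genes, and all 36 estimates were above 0, against 48.3%. The 11 members called in APOE3 were among them, and the others were Bst2, Ifi209, Ifit3, Ifit3b, Mx1, Mx2, Parp14, Samhd1, Slfn2, Slfn5 and Usp18. Some members passed the low-count filter only because of their microbead libraries. Zbp1, Rsad2 and Ifit3b, for example, had fewer than 10 reads in every sham library. The calls of such members, here and in APOE3, are not independent of the filter. For 4 members, Ifi204, Ifi207, Ifit3 and Rsad2, all 6 microbead libraries lay above all 8 sham libraries, against 0.933% of all genes. The count of 22 fell to 13 without APOE3 microbead 2 and to 13 without APOE4 microbead 3. Limma on the deposited TPM called 0 of the 29 members that passed its filter. The fit without both APOE3 microbead 1 and 2 left only APOE3 microbead 3 in its group, so its count is not given.

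**Figure D1:**
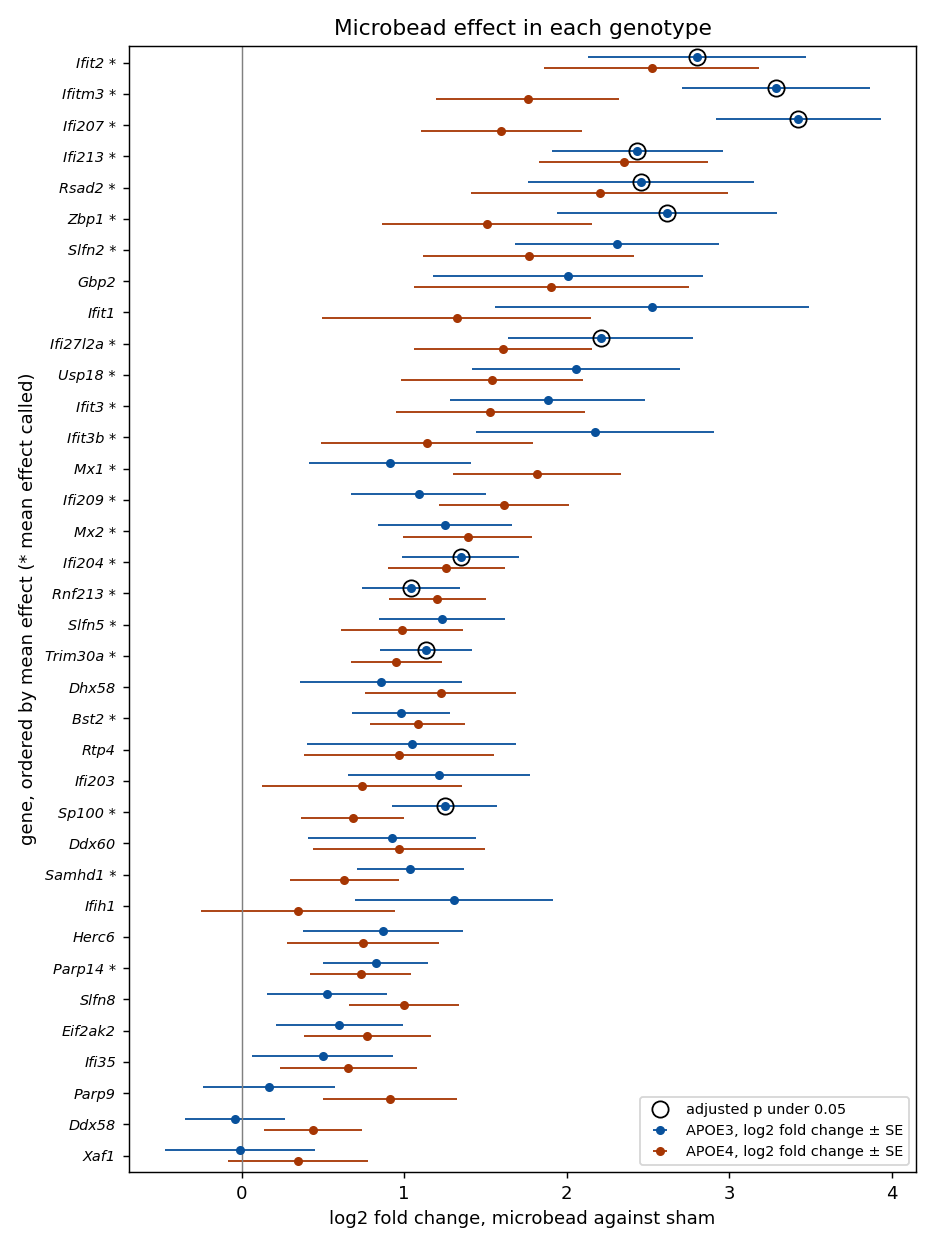
Log2 fold change (x axis, microbead against sham, point and SE) for each of the 36 members tested (y axis, ordered by mean effect), in APOE3 (blue) and APOE4 (orange). Rings mark the 11 effects in APOE3 with an adjusted p under 0.05, stars mark the 22 members called for the mean effect, and all 36 APOE4 points lie right of 0.

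**Figure D2:**
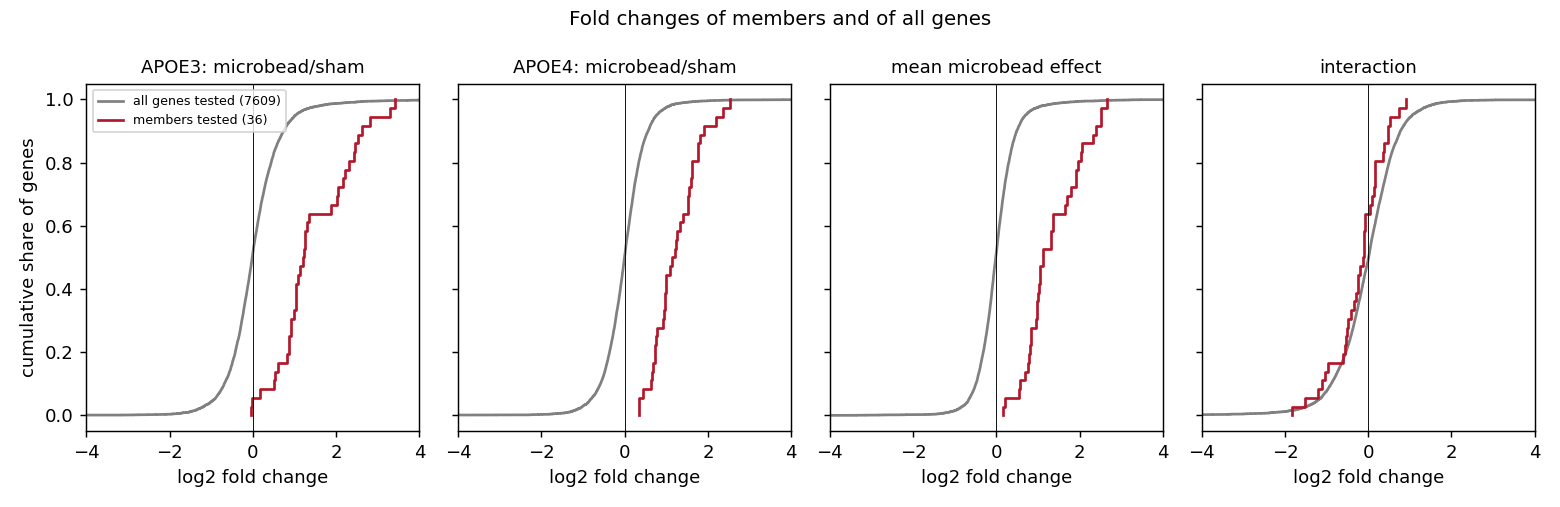
Cumulative share of genes (y axis, 0 to 1) by log2 fold change (x axis) for the 36 members (red) and all 7609 genes tested (grey), for microbead against sham in APOE3, in APOE4, for the mean effect and for the interaction. The member curve lies to the right in the first 3 panels, with medians of 1.22, 1.17 and 1.12, and has a median of -0.11 in the interaction panel; no test was made on the curves.

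The IFIT proteins bind viral RNA that lacks the cap modification of host mRNA and hold it back from translation. Ifit2 stood at 0, 6.75, 19.5 and 10.4 CPM in the APOE3 sham libraries and at 128, 53.5 and 15.4 CPM in the APOE3 microbead libraries. In APOE4 its sham libraries read 12.1, 15.9, 8.55 and 5.44 CPM and its microbead libraries 60.1, 57.5 and 68.1 CPM. The APOE4 groups were far apart and the microbead libraries close together, whereas APOE3 microbead 3 lay within the range of its shams. Ifit2 rose in APOE3 by 2.80 ± 0.67 log2 (adjusted p = 0.0232) and for the mean effect by 2.66 ± 0.47 (adjusted p = 0.00386). The APOE4 effect of 2.52 ± 0.66 had an adjusted p of 0.217. Its call in APOE3 was lost without APOE3 sham 2 or 4 or APOE3 microbead 1 or 2 (adjusted p 0.0635 to 0.0842).

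Ifit3, which joins other IFIT proteins in a complex, stood at 0, 25.3, 33.2 and 27.7 CPM in APOE3 sham and at 119.6, 57.8 and 68.3 CPM in APOE3 microbead libraries. In APOE4 it stood at 38.0, 38.2, 30.8 and 10.9 CPM in sham and at 52.3, 75.1 and 129.6 CPM in microbead libraries. No sham library of either genotype reached the lowest microbead library, and APOE3 sham 1 had no read. Its mean effect was 1.71 ± 0.42 log2 (adjusted p = 0.0352), a call lost in 10 of the 14 fits that left out 1 library (adjusted p 0.0548 to 0.0984). Ifit3b, its near copy, was low: 1.65, 6.75, 0 and 5.76 CPM in APOE3 sham, 26.1, 19.3 and 8.54 CPM in APOE3 microbead libraries. Its APOE4 sham libraries read 12.1, 6.37, 10.3 and 10.9 CPM and its APOE4 microbead libraries 5.81, 9.58 and 49.9 CPM, so that APOE4 microbead 3 alone stood above the shams. The mean effect of Ifit3b was 1.66 ± 0.49 log2 (adjusted p = 0.0472), and it had 107 reads in all. Gene totals were not whole numbers in 13 libraries for Ifit3b and in 12 for Ifit3, so reads of both may be split with another gene. The Ifit3b call was lost in 9 of 14 such fits (adjusted p 0.0685 to 0.557). Ifit1, with 115 reads in all, was not called (mean effect 1.92 ± 0.64 log2, adjusted p = 0.120).

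In the ISG15 system, Usp18 cleaves the ubiquitin-like protein ISG15 from its targets and restrains signalling at the interferon receptor. Usp18 stood at 0, 3.38, 3.91 and 16.1 CPM in APOE3 sham and at 34.8, 26.7 and 23.9 CPM in APOE3 microbead libraries. In APOE4 the sham libraries read 20.7, 20.7, 5.13 and 14.5 CPM and the microbead libraries 17.4, 43.1 and 73.1 CPM. The APOE3 groups were apart, and APOE4 microbead 1 lay within the range of its shams. The mean effect was 1.80 ± 0.42 log2 (adjusted p = 0.0151), lost without APOE4 microbead 3 (adjusted p = 0.0561). Herc6, the ligase that attaches ISG15 in mice, was not called (0.81 ± 0.34 log2, adjusted p = 0.241). Isg15 itself had 82 reads in all and was not tested.

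Among the nucleic acid sensors, Zbp1 binds left-handed double-stranded RNA and DNA and can start necroptosis. It alone of the 6 was called, against 3.52% of all genes higher in APOE3 and 3.26% for the mean effect. In a list this short, 1 call is not far from those shares. Zbp1 stood at 6.61, 1.69, 1.95 and 3.46 CPM in APOE3 sham and at 19.6, 35.3 and 10.2 CPM in APOE3 microbead libraries. The APOE4 libraries read 10.4, 9.55, 3.42 and 1.81 CPM after sham and 5.81, 24.0 and 24.9 CPM after microbeads. The APOE3 groups did not overlap, and APOE4 microbead 1 again stood among its shams. Zbp1 rose by 2.62 ± 0.67 log2 in APOE3 (adjusted p = 0.0169) and by 2.06 ± 0.47 for the mean effect (adjusted p = 0.00765). Its APOE4 estimate was 1.51 ± 0.65 (adjusted p = 0.660). The APOE3 call was lost without APOE3 sham 2 or APOE3 microbead 2 (adjusted p 0.0577 to 0.276), and the mean call without APOE3 microbead 2 (adjusted p = 0.0817). The RIG-I-like receptors, which detect viral double-stranded RNA and its ends, did not pass: Ddx58 (RIG-I) had a mean effect of 0.20 ± 0.22 log2, Ifih1 (MDA5) of 0.83 ± 0.43 and Dhx58 (LGP2) of 1.04 ± 0.34. Eif2ak2 (PKR), the kinase that halts translation on binding double-stranded RNA, had 0.69 ± 0.28 log2, and Ddx60 had 0.95 ± 0.37.

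The Ifi200 proteins bind DNA through HIN domains and include sensors of cytosolic DNA. Of the 5 tested, 4 were called for the mean effect, against 3.26% of all genes higher. Ifi207 gave the largest APOE3 estimate of the 36 members tested. Its APOE3 sham libraries stood at 6.61, 0, 5.86 and 10.4 CPM and its APOE3 microbead libraries at 54.4, 87.7 and 56.4 CPM. In APOE4 the sham libraries stood at 15.6, 20.7, 5.13 and 5.44 CPM and the microbead libraries at 21.3, 30.3 and 56.5 CPM. Groups were apart in both genotypes, with the wider gap in APOE3. Ifi207 rose by 3.42 ± 0.51 log2 in APOE3 (adjusted p = 0.000136) and by 2.51 ± 0.36 for the mean effect (adjusted p = 9.08e-05), both kept in all 14 fits that left out 1 library. The APOE4 estimate was 1.60 ± 0.50 (adjusted p = 0.305).

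Ifi213 stood at 11.6, 8.44, 5.86 and 12.7 CPM in APOE3 sham and at 74.0, 59.9 and 30.7 CPM in APOE3 microbead libraries. In APOE4 it read 15.6, 7.96, 17.1 and 5.44 CPM after sham and 11.6, 73.5 and 91.4 CPM after microbeads. APOE4 microbead 1 lay among its shams, and all other microbead libraries lay above every sham library. The effects were 2.43 ± 0.52 log2 in APOE3 (adjusted p = 0.00652), 2.35 ± 0.52 in APOE4 (adjusted p = 0.0748) and 2.39 ± 0.37 on average (adjusted p = 0.000485). Neither call changed in any of the 14 fits that left out 1 library.

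Ifi204, a DNA sensor that signals through STING, read 9.91, 25.3, 48.9 and 35.7 CPM in APOE3 sham and 67.4, 95.2 and 63.2 CPM in APOE3 microbead libraries. Its APOE4 sham libraries read 51.9, 28.7, 32.5 and 20.0 CPM and its microbead libraries 52.3, 81.5 and 105 CPM. All 6 microbead libraries were above all 8 sham libraries, by a narrow gap in APOE4. It rose by 1.35 ± 0.36 log2 in APOE3 (adjusted p = 0.0248) and by 1.30 ± 0.25 on average (adjusted p = 0.00251). The APOE3 call was lost without APOE3 sham 1 or 2 or APOE3 microbead 2 (adjusted p 0.0768 to 0.169). Ifi209 differed from these in that the APOE4 groups were apart and the APOE3 groups were not. It stood at 9.91, 15.2, 13.7 and 13.8 CPM in APOE3 sham and 19.6, 47.1 and 13.7 CPM in APOE3 microbead libraries. In APOE4 it stood at 12.1, 20.7, 8.55 and 16.3 CPM in sham and 42.6, 43.1 and 48.2 CPM in microbead libraries. Its mean effect was 1.35 ± 0.29 log2 (adjusted p = 0.00443), lost without APOE3 microbead 2 (adjusted p = 0.0862), and its interaction of 0.53 ± 0.59 did not pass (adjusted p = 0.915). Ifi203 was not called (0.98 ± 0.42 log2, adjusted p = 0.257). These genes share sequence, and reads may be split among them. Gene totals that were not whole numbers occurred in 14 libraries for Ifi204 and Ifi209 and in 12 for Ifi203. They occurred in 10 libraries for Ifi213 and in 8 for Ifi207.

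The large GTPases Mx1 and Mx2 block incoming viral particles, and Rnf213 is a very large ubiquitin ligase that acts on intracellular bacteria and lipid droplets. Mx1 stood at 19.8, 23.6, 21.5 and 17.3 CPM in APOE3 sham and at 65.3, 33.2 and 20.5 CPM in APOE3 microbead libraries. In APOE4 it read 20.7, 19.1, 6.84 and 7.26 CPM after sham and 27.1, 20.8 and 96.4 CPM after microbeads. The APOE4 groups were just apart, and 1 library of each microbead group stood well above the others. The mean effect was 1.36 ± 0.36 log2 (adjusted p = 0.0292), lost in 9 of 14 fits that left out 1 library (adjusted p 0.0532 to 0.214). Mx2 read 14.9, 6.75, 9.77 and 20.8 CPM in APOE3 sham and 28.3, 25.7 and 44.4 CPM in APOE3 microbead libraries. Its APOE4 sham libraries read 15.6, 27.1, 10.3 and 14.5 CPM and its APOE4 microbead libraries 42.6, 30.3 and 61.5 CPM. Groups were apart within each genotype, and the mean effect of 1.32 ± 0.29 log2 (adjusted p = 0.00506) was kept in all 14 such fits.

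Rnf213 had 1211 reads, the most of any member. It stood at 81.0, 60.8, 111 and 95.7 CPM in APOE3 sham and at 231, 155 and 157 CPM in APOE3 microbead libraries. In APOE4 it stood at 161, 95.5, 65.0 and 79.8 CPM in sham and at 155, 190.1 and 347 CPM in microbead libraries. APOE4 sham 1 reached the level of the lower microbead libraries, and the APOE3 groups were apart. The effects were close in size, 1.04 ± 0.30 log2 in APOE3 (adjusted p = 0.0473) and 1.20 ± 0.30 in APOE4 (adjusted p = 0.132). The APOE3 call was lost in 9 of 14 fits that left out 1 library (adjusted p 0.0542 to 0.224), and the mean effect of 1.12 ± 0.21 (adjusted p = 0.00251) was kept in all 14. Gbp2, a guanylate-binding protein, had 75 reads and a mean effect of 1.96 ± 0.59 log2 (adjusted p = 0.0547), just outside the threshold.

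All 3 membrane proteins were called for the mean effect, against 3.26% of all genes higher. Ifitm3, which blocks the fusion of viruses with endosomal membranes, stood at 13.2, 6.75, 35.2 and 15.0 CPM in APOE3 sham and at 185, 248 and 64.9 CPM in APOE3 microbead libraries. In APOE4 it stood at 22.5, 35.0, 30.8 and 27.2 CPM in sham and at 32.9, 110.2 and 149.6 CPM in microbead libraries. The APOE3 groups were apart, and APOE4 microbead 1 lay within its shams. Ifitm3 rose by 3.29 ± 0.58 log2 in APOE3 (adjusted p = 0.00433) and by 2.52 ± 0.40 on average (adjusted p = 0.00281), with 1.76 ± 0.56 in APOE4 (adjusted p = 0.427). Both calls were kept in all 14 fits that left out 1 library. The APOE3 call was not kept without both APOE3 microbead 1 and 2, which leaves only APOE3 microbead 3 in its group. Ifitm3 is also abundant in monocytes, whose summed markers were highest in those libraries, and their part in its level was not tested.

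Bst2 (tetherin) holds budding virus particles on the cell surface. It read 31.4, 33.8, 45.0 and 72.6 CPM in APOE3 sham and 109, 105 and 63.2 CPM in APOE3 microbead libraries. The APOE4 libraries read 58.8, 68.5, 63.2 and 65.3 CPM after sham and 73.7, 149 and 183 CPM after microbeads. The APOE4 groups were apart, while APOE3 microbead 3 lay below the highest APOE3 sham. The mean effect was 1.03 ± 0.21 log2 (adjusted p = 0.00293), kept in all 14 fits that left out 1 library. Ifi27l2a, a small protein of intracellular membranes, had the highest mean level per length of any member, 85.5 TPM (abundance scaled for length and depth). Its CPM was 29.7, 28.7, 64.5 and 15.0 in APOE3 sham and 183, 209.7 and 66.6 in APOE3 microbead libraries. In APOE4 its CPM was 77.8, 58.9, 39.3 and 34.5 in sham and 60.1, 204 and 216 in microbead libraries. The lowest microbead library of APOE3 was just above its highest sham, and that of APOE4 was within the shams. It rose by 2.21 ± 0.57 log2 in APOE3 (adjusted p = 0.0473) and by 1.91 ± 0.39 on average (adjusted p = 0.0162). The APOE3 call was lost in 10 of 14 fits that left out 1 library (adjusted p 0.0534 to 0.207), and the mean call without APOE3 microbead 2 (adjusted p = 0.0609).

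**Figure D3:**
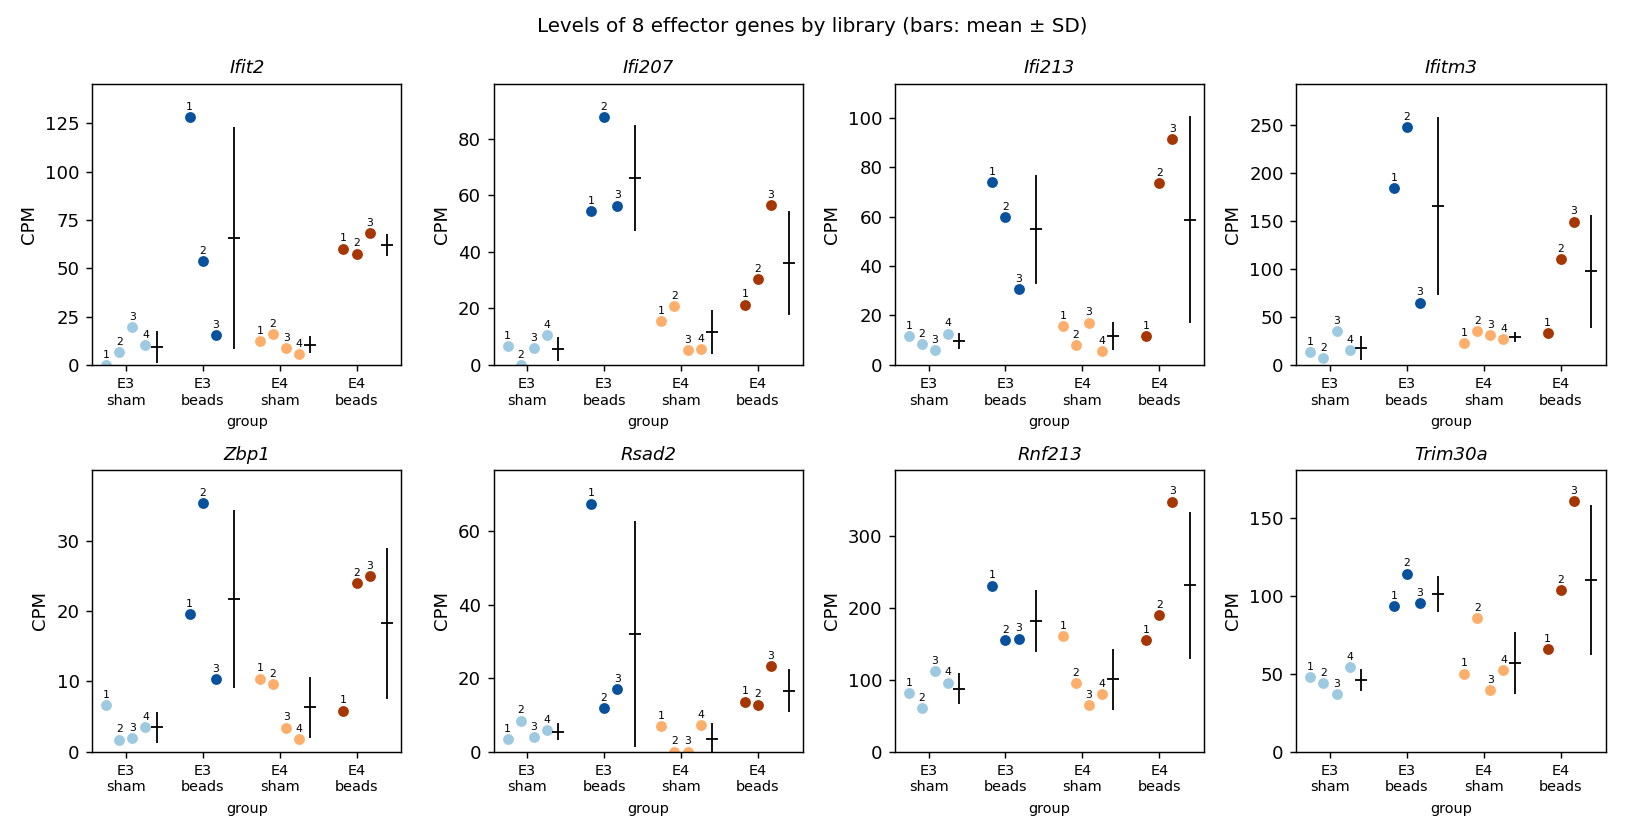
Level of 8 members (y axis, CPM) in each of the 14 libraries (points, numbered by replicate) by group (x axis, E3 and E4 for APOE3 and APOE4, beads for microbead), with the mean ± SD of each group beside the points. Ifit2 in APOE4 lies between 57.5 and 68.1 CPM after microbeads, while Rsad2 in APOE3 is carried by 1 library at 67.4 CPM.

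Among the restriction enzymes, Rsad2 (viperin) makes a chain-terminating nucleotide that stops viral RNA synthesis. Rsad2 stood at 3.30, 8.44, 3.91 and 5.76 CPM in APOE3 sham and at 67.4, 11.8 and 17.1 CPM in APOE3 microbead libraries. In APOE4 it stood at 6.92, 0, 0 and 7.26 CPM in sham and at 13.6, 12.8 and 23.3 CPM in microbead libraries. All microbead libraries were above all sham libraries, with APOE3 microbead 1 far above the rest. It rose by 2.46 ± 0.70 log2 in APOE3 (adjusted p = 0.0343) and by 2.33 ± 0.53 on average (adjusted p = 0.00780). The APOE3 call was lost without APOE3 sham 1, 2, 3 or 4 or APOE3 microbead 1 (adjusted p 0.0551 to 0.525), and the mean call without APOE3 microbead 1 (adjusted p = 0.0866). Samhd1 depletes the nucleotides that reverse transcription needs. Its CPM was 26.4, 27.0, 33.2 and 42.7 in APOE3 sham, 65.3, 86.7 and 47.8 in APOE3 microbead, 55.3, 17.5, 37.6 and 41.7 in APOE4 sham and 32.9, 67.1 and 74.8 in APOE4 microbead libraries. The APOE3 groups were apart and the APOE4 groups overlapped. The mean effect was 0.84 ± 0.24 log2 (adjusted p = 0.0346), lost in 10 of 14 fits that left out 1 library (adjusted p 0.0505 to 0.151).

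The Schlafens are a family of proteins that restrain growth and viral replication. Slfn2 stood at 16.5, 10.1, 27.4 and 17.3 CPM in APOE3 sham and at 104, 104 and 54.7 CPM in APOE3 microbead libraries. The APOE4 libraries read 22.5, 39.8, 10.3 and 0 CPM after sham and 25.2, 68.7 and 94.7 CPM after microbeads. The 0 of APOE4 sham 4 is a gene total that the deposited TPM does not share. There Slfn2 stood at 4.91 TPM in that library, against 2.56 to 7.29 TPM in the other APOE4 shams. The APOE4 and mean effects of Slfn2 include this 0, and the reason for the difference was not tested. Without APOE4 sham 4 the call for the mean effect was kept. The APOE3 groups were apart, and APOE4 microbead 1 fell below the highest APOE4 sham. Its mean effect was 2.04 ± 0.45 log2 (adjusted p = 0.0203), lost without APOE3 microbead 1 or 2 or APOE4 microbead 2 or 3 (adjusted p 0.0577 to 0.0702). Slfn5 read 33.0, 18.6, 21.5 and 26.5 CPM in APOE3 sham and 95.7, 50.3 and 35.9 CPM in APOE3 microbead libraries. Its APOE4 sham libraries read 45.0, 41.4, 10.3 and 32.7 CPM and its APOE4 microbead libraries 46.5, 55.9 and 89.8 CPM. Groups were apart within both genotypes, narrowly. Its mean effect was 1.11 ± 0.27 log2 (adjusted p = 0.0147), lost without APOE3 microbead 1 or APOE4 microbead 3 (adjusted p 0.0510 to 0.0662). Slfn8 was not called for the mean effect (0.76 ± 0.25 log2, adjusted p = 0.0895).

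Among the regulators, Trim30a is a ubiquitin ligase that damps inflammatory signalling, Sp100 is a component of nuclear bodies, and Parp14 and Parp9 add ADP-ribose to proteins. Trim30a stood at 47.9, 43.9, 37.1 and 54.2 CPM in APOE3 sham and at 93.5, 114 and 95.6 CPM in APOE3 microbead libraries. In APOE4 it stood at 50.1, 86.0, 39.3 and 52.6 CPM in sham and at 65.9, 104 and 161 CPM in microbead libraries. APOE4 sham 2 lay above APOE4 microbead 1, and the APOE3 groups were well apart. The effects were 1.14 ± 0.28 log2 in APOE3 (adjusted p = 0.0129) and 1.04 ± 0.20 on average (adjusted p = 0.00164), the former lost without APOE3 microbead 2 (adjusted p = 0.0816).

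Sp100 read 28.1, 23.6, 35.2 and 38.0 CPM in APOE3 sham and 80.5, 81.3 and 63.2 CPM in APOE3 microbead libraries. The APOE4 libraries read 64.0, 47.8, 29.1 and 32.7 CPM after sham and 32.9, 73.5 and 101 CPM after microbeads. The APOE3 groups were apart, and the APOE4 groups overlapped at microbead 1. It rose by 1.25 ± 0.32 log2 in APOE3 (adjusted p = 0.0169) and by 0.97 ± 0.23 on average (adjusted p = 0.00967). The APOE3 call was lost without APOE3 sham 1 or 2 or APOE3 microbead 1 or 2 (adjusted p 0.0526 to 0.0833), and the mean call without APOE4 microbead 3 (adjusted p = 0.0676). Parp14 read 28.1, 52.3, 33.2 and 27.7 CPM in APOE3 sham and 76.1, 65.3 and 46.1 CPM in APOE3 microbead libraries. Its APOE4 values were 76.1, 47.8, 51.3 and 23.6 CPM after sham and 60.1, 99.0 and 88.1 CPM after microbeads, and groups overlapped in both genotypes. Its mean effect was 0.78 ± 0.22 log2 (adjusted p = 0.0391), lost in 10 of 14 fits that left out 1 library (adjusted p 0.0638 to 0.138). Parp9 (0.54 ± 0.29 log2), Xaf1 (0.17 ± 0.32), Rtp4 (1.01 ± 0.43) and Ifi35 (0.58 ± 0.30) were not called, with adjusted p-values of 0.286 to 0.901. The 14 members called in no comparison had mean effects of 0.17 to 1.96 log2 and adjusted p-values of 0.0547 to 0.901.

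**Figure D4:**
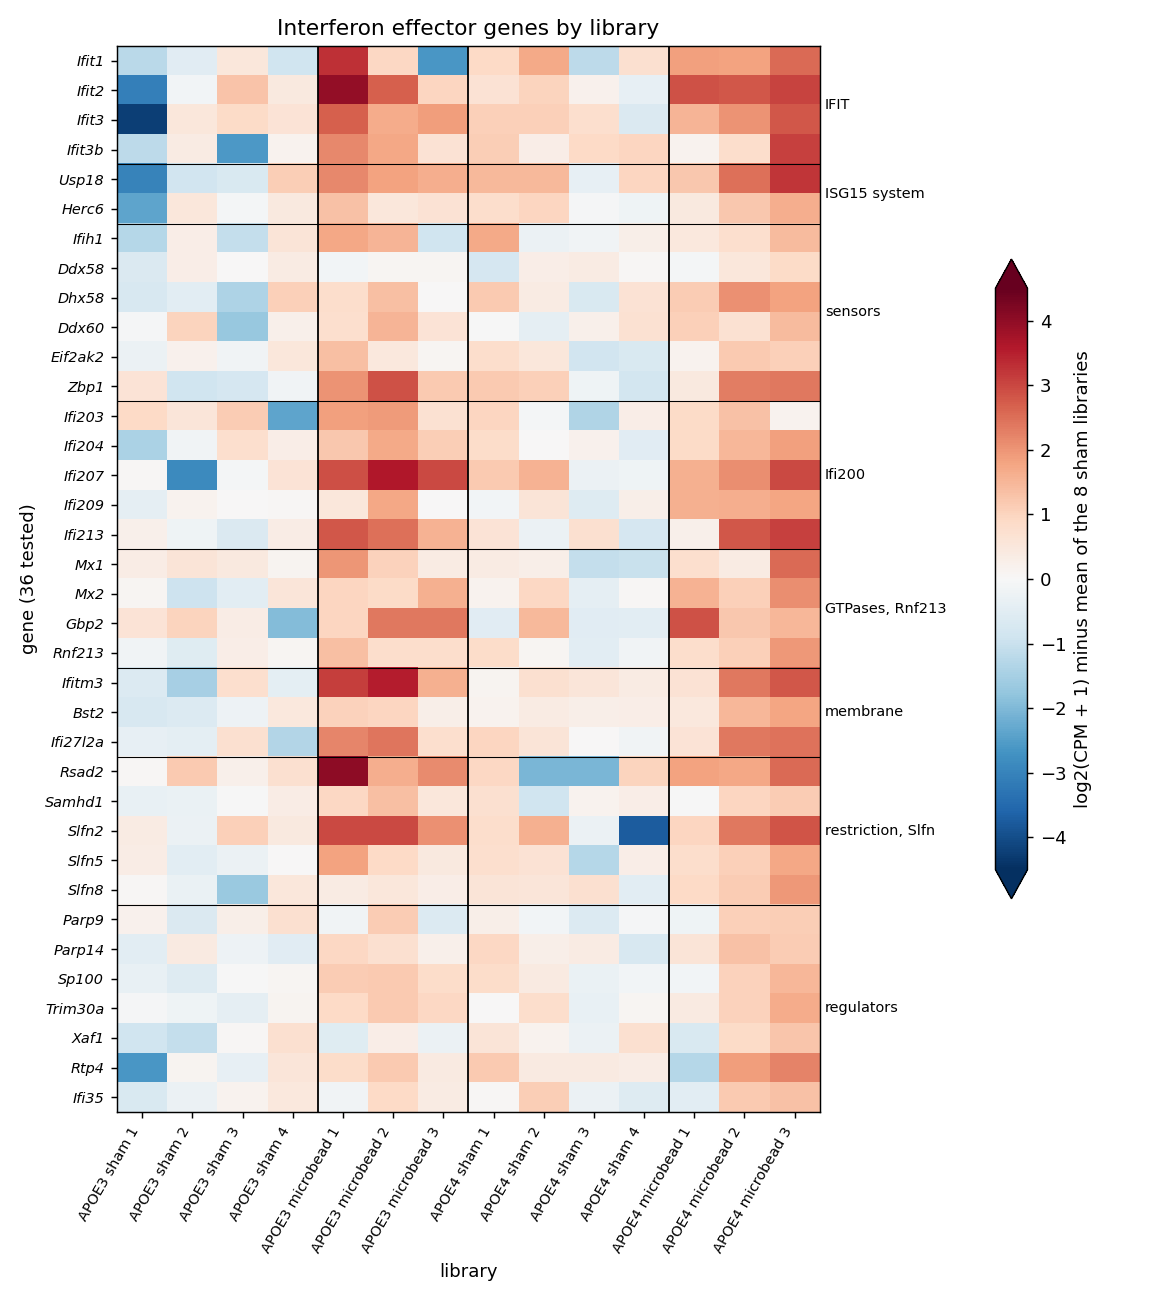
Level of the 36 members tested (rows, grouped by role) in each library (columns), as log2(CPM + 1) minus the mean of the 8 sham libraries. APOE4 microbead 3 is the highest library for 19 members, and no sham library is the highest for any member.

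The 6 members that were not tested had too few reads for the filter, and their reads are summed over each group. Isg15, the ubiquitin-like modifier of the response, had 0, 1, 0 and 3 reads in APOE3 sham and 10, 24 and 5 in APOE3 microbead libraries. That was a ratio, corrected for library size, of 12.7 (95% exact interval 4.58 to 48.9) for the summed reads. In APOE4 Isg15 had 4, 5, 4 and 3 reads in sham and 4, 10 and 9 in microbead libraries, a ratio of 1.93 (95% exact interval 0.977 to 3.91). Ifi211 of the Ifi200 family had a ratio of 12.0 (95% exact interval 4.78 to 38.6) in APOE3 and of 4.37 (95% exact interval 1.35 to 18.4) in APOE4. The nuclease Isg20 had ratios of 5.86 (95% exact interval 1.93 to 23.8) and 5.71 (95% exact interval 1.86 to 23.3), and Gbp3 of 2.23 (95% exact interval 1.27 to 4.02) and 4.99 (95% exact interval 2.11 to 13.6). Cmpk2, the neighbour of Rsad2 that makes nucleotides for it, had 2.40 (95% exact interval 1.18 to 5.14) and 1.34 (95% exact interval 0.440 to 4.11), and Ifi44 had 1.56 (95% exact interval 0.397 to 6.47) and 2.35 (95% exact interval 0.921 to 6.47). Such intervals cover counting error only and not the spread between libraries, so they are no test of the groups. All 12 ratios were above 1, and 8 of the intervals lay wholly above 1.

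The members' levels differed between libraries of the same group in a shared way. The summed CPM of the 42 members was 644, 759.8, 882 and 1008 in APOE3 sham and 2573, 2405 and 1433 in APOE3 microbead libraries. In APOE4 the sum was 1336, 1179.7, 791 and 816 in sham and 1361, 2345 and 3196 in microbead libraries. Sums of sham and microbead libraries did not overlap in either genotype, but APOE4 microbead 1 was only just above APOE4 sham 1. Within its group, APOE4 microbead 3 was the highest library for 31 of 36 members and APOE4 microbead 1 the lowest for 28. APOE3 microbead 3 was the lowest of its group for 25. The deviation of a member from its group mean correlated with the mean deviation of the other members, with a median r of 0.63 over 14 libraries (range -0.44 for Gbp2 to 0.89 for Sp100). For all genes the median r with the members' mean deviation was -0.001, and 6.11% exceeded 0.5, against 28 of 36 members. These libraries share depth and sort, and no p is given.

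Markers of other cell types were summed in the same libraries. The 16 monocyte markers summed to 309 to 392 CPM in APOE3 sham, to 243 to 377 in APOE4 sham, to 5522, 6708 and 1305 in APOE3 microbead and to 543, 1349.6 and 450.4 in APOE4 microbead libraries. Of these markers, Ly6c2 stood at 2.18, 2.14 and 1.71 CPM and Ccr2 at 80.5, 111 and 15.4 CPM in the APOE3 microbead libraries. Most of the sum there thus came from other genes of the list, and it is not a count of monocytes. The library with the highest member sum of all, APOE4 microbead 3, had the lowest monocyte sum of the 6 microbead libraries. Within APOE3 microbead, libraries 1 and 2 had the higher monocyte sums and the higher member sums, 2573 and 2405 CPM. APOE3 microbead 3 had the lower of both, with a member sum of 1433 CPM. P2ry12, a receptor of resting microglia, stood at 161, 203 and 367 CPM in APOE3 microbead and at 554, 529 and 562 in APOE4 microbead libraries, with shams at 652 to 1021 CPM. P2ry12 is 1 of 16 microglial markers, which summed to 17911 to 24152 CPM in APOE3 sham and to 9790 to 15653 in APOE3 microbead libraries. In APOE4 that sum did not fall, at 18497 to 22001 CPM after sham and 18967 to 21472 CPM after microbeads. The 10 neutrophil markers summed to 198 to 440 CPM over all libraries, of which Csf3r alone gave 172 to 422 CPM, while S100a8 and S100a9 had 3 and 2 reads in all. The 12 T and NK cell markers summed to 9.58 to 26.1 CPM, with Trbc2, Nkg7 and Gzma at 0. The 8 B cell markers summed to 275 to 308 CPM in APOE3 sham against 107 to 141 CPM in APOE3 microbead libraries, and to 247 to 330 against 168 to 244 CPM in APOE4. Most of that sum was Ighm, whose mean effect was -0.95 ± 0.15 log2 (adjusted p = 0.000135), while Cd79a had 4 reads in all and Igkc none. The part of these cells in the members' levels was not tested.

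**Figure D5:**
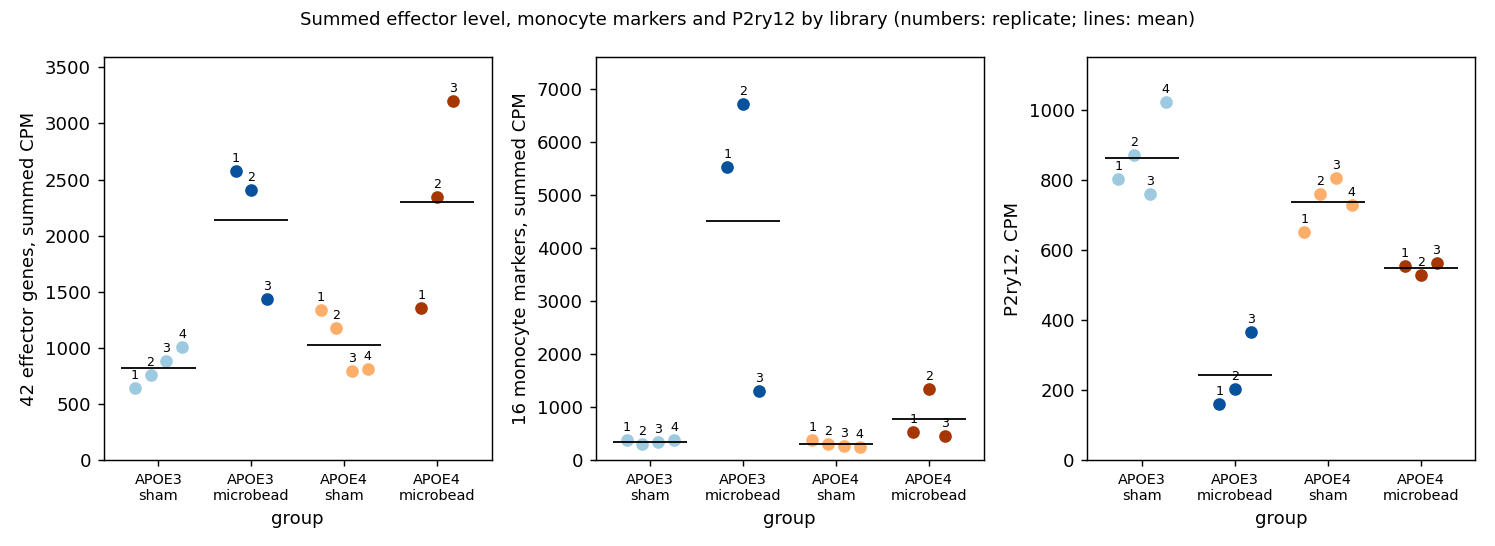
Summed level of the 42 members, summed level of 16 monocyte markers and level of P2ry12 (y axes, CPM) in each library (points numbered by replicate) by group (x axis), with the group mean as a line. APOE4 microbead 3 has the highest member sum, 3196 CPM, and a monocyte sum of 450.4 CPM. APOE3 microbead 1 and 2 have the highest monocyte sums and higher member sums than APOE3 microbead 3.

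The rest of the interferon pathway was measured in lists of genes that are not members. Of the 21 interferon genes listed, none was tested, and all of them together had 28 reads in the 14 libraries, of which Ifnb1 had 2. Receptors and kinases did not pass in any comparison (0 of 7 tested), and 3.26% of all genes were higher for the mean effect. In a list this short, 0 is near that share. Ifnar1 stood at 68.6 ± 22.8 CPM (SD, n = 4) in APOE3 sham and at 97.8 ± 33.5 CPM (n = 3) in APOE3 microbead libraries, with a mean effect of 0.26 ± 0.19 log2 (adjusted p = 0.635). Ifnar2 had a mean effect of 0.08 ± 0.16 (adjusted p = 0.910), and Tyk2 and Il10rb did not pass either. Among the regulatory factors, Irf7, the factor that amplifies interferon production, rose for the mean effect by 2.48 ± 0.33 log2 (adjusted p = 0.000135) and passed in each genotype, at adjusted p = 0.00299 in APOE3 and 0.0359 in APOE4. Stat2 rose by 1.04 ± 0.19 (adjusted p = 0.000941), while Irf9 stood at 0.25 ± 0.22 (adjusted p = 0.712).

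Of the oligoadenylate synthetase family, 6 of 7 genes tested rose for the mean effect, against 3.26% of all genes. Enzymes of this family can activate the nuclease that cuts viral RNA, though not every member does. Oas2 rose by 3.29 ± 0.42 log2 (adjusted p = 0.000418) and passed in both genotypes, and Oasl1 by 2.51 ± 0.45, Oasl2 by 1.92 ± 0.40 and Oas1g by 2.35 ± 0.55. Of 13 upstream sensors and adaptors 0 passed for the mean effect, which is near that share in a short list. Ikbke, a kinase upstream of the interferon genes, was higher in APOE3 by 3.70 ± 0.97 log2 (adjusted p = 0.0186), and was singled out after its value was seen. It had 59 reads in all, its APOE4 estimate was -2.37 ± 1.46 (adjusted p = 0.875), and its interaction was -6.07 ± 1.74 (adjusted p = 0.209). Of 7 feedback inhibitors 1 rose for the mean effect, against 3.26% of all genes, and 1 call is not far from that share in a short list. It was Trex1, the nuclease that clears cytosolic DNA (0.99 ± 0.26 log2, adjusted p = 0.0338). Of 47 other interferon-induced genes tested 12 rose for the mean effect, against 3.26% of all genes. Lgals3bp rose by 1.87 ± 0.22 log2 (adjusted p = 6.90e-05), Irgm1 by 0.99 ± 0.20, Shisa5 by 0.73 ± 0.16 and Tap1 by 0.91 ± 0.20. Across all lists together, the genes called in APOE4 were Irf7, Oas2 and Lgals3bp.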

How the data were processed

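The labels' protocols describe dissected retinas, a Percoll gradient and the sort. The submitters' processing notes name Salmon 1.4.0, R 4.0.3, DESeq2 1.30.1 and the build mm10, with no order of steps. The authors deposited estimated counts per transcript for each library and a TPM table of the series. Of 116945 transcripts, 116023 were assigned to 35519 genes with GENCODE M21, and counts were summed per gene and rounded. As a check of labels, each library's recomputed TPM fell within 1% of its own series column for at least 99.5% of genes and of another column for at most 2.57%. Genes passing filterByExpr (minimum count 10, minimum total 15) were tested with the edgeR 4.0.16 quasi-likelihood test (TMM, R 4.3.3) with 4 group means fitted jointly to the 14 libraries, two-sided, with Benjamini-Hochberg adjustment over all genes. The common biological coefficient of variation was 0.275. SE was derived from the F statistic. Alternatives used DESeq2 1.42.0 and limma 3.58.1, and the code was tested on simulated data. Gene totals that were not whole numbers, a sign that reads were shared with other genes, occurred in every library for 10 members and in none for 7. The 10 included the called members Ifi204, Ifi209, Samhd1, Slfn5, Parp14 and Sp100, and Trim30a had such totals in 13 libraries. The deposited TPM served for levels between genes, on a log2(TPM + 1) scale in 1 alternative. Members, lists and rules were chosen with earlier results of these data known. Values of every library are given for members called in at least 1 comparison; of each list the text names up to 4 genes with the smallest unadjusted p for the mean effect, and a fixed set of pathway genes. Replicate numbers did not pair libraries: 0 of 19 same-numbered pairs had correlated deviations above 0.1. Protein identity between members was not computed. A gene of the pathway lists, and the count of the list that holds it, are not reported here.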

Additional observations from a re-analysis of the deposited data

Results flagged for a closer look

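Levels that stood far from the other libraries of their group were found in 3 of 74 sets of 4 sham libraries (the tested members and the sum of all members, in both sham groups), and chance flags about 1 in 20. Ifih1 stood at 46.7 CPM in APOE4 sham 1, against 11.1 to 16.3 CPM in the other APOE4 sham libraries. Rtp4 stood at 36.3 CPM in the same library, against 20.0 to 20.7 CPM in the others. Gbp2 stood at 9.55 CPM in APOE4 sham 2, against 1.71 to 1.81 CPM in the others, a gene with 75 reads in all libraries together. APOE4 sham 1 also had the highest summed level of the members among the sham libraries, 1336 CPM.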

How the results depend on the processing

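Members called in APOE3 numbered 11 in the reported fit, 6 with library totals as scaling, 6 with length offsets and 21 with no low-count filter. The number was 4 with the replicate block and 1 with limma on log2(TPM + 1). It was 5 without both APOE3 microbead 2 and APOE4 microbead 3, an alternative chosen after seeing the data. With 1 library left out the number was 4 to 17. In APOE4 it was 0 as reported, 4 with DESeq2, 11 with no low-count filter, 4 with only the libraries compared and 0 to 2 with 1 library left out. For the mean effect it was 22 as reported, 14 with library totals, 13 with length offsets and 13 with the replicate block (12 of them among the 22). It was 0 with limma on log2(TPM + 1), 10 without APOE3 microbead 2 and APOE4 microbead 3, and 13 to 24 with 1 library left out. The set of genes tested moved with several of these settings, and otherwise the cause was not tested. Shares of all genes called under each alternative are not given. The counts therefore do not show whether the members or the calls over all genes moved. With both APOE3 microbead 1 and 2 left out, the members' median was 0.56 in APOE3, 0.43 for the interaction and 0.82 between microbead groups. That fit left only APOE3 microbead 3 in its group, so effect sizes are given and its counts are not. Counts for the interaction, the shams and the microbead groups were 0 in every alternative run. With library totals the all-gene median shifted to -0.22 in APOE4, -0.19 for the interaction, 0.16 between shams and -0.13 for the mean effect, against which the members' medians there of 1.00, -0.27, 0.46 and 0.99 are to be read. Across all alternatives the mean effect was above 0 for at least 29 members and below 0 for at most 2. No called result of a single member changed direction. Of the 33 such results none was called in every alternative, and 9 of the 22 mean effects and 3 of the 11 APOE3 effects were kept whichever 1 library was left out. The replicate numbers did not pair the libraries, so the replicate block is shown only here. Fits with only the libraries compared do not exist for the interaction and the mean effect, which use all groups. The depth of 453429 to 730134 reads leaves 6 members untested.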
